A study of Mus musculus with 12 samples.

Results

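The genes described here are those that the authors listed as different between Pbx mutant and control motor neurons at both spinal levels, chosen as the gene symbols found in both deposited mutant tables. There were 30 of them, out of 205 genes in all 3 tables. The thoracic mutant table lists 130 genes and the brachial one 62, so the 30 made up 23.1% of the first and 48.4% of the second. Of the 30, 29 are protein coding in the files and 1, H19, is a long non-coding RNA. The authors' tests of mutant against control chose these genes, so their mutant differences are given as a description. Counts of these differences that pass a threshold support nothing. The share over the whole table is printed with the counts of the main fit, but not with those of every alternative. The difference between the levels, and the control levels, were not what the choice was made on, although they use the same libraries.

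The RNA came from mouse spinal motor neurons at E12.5 on a highly mixed C57BL/6 background. All groups carried the Hb9::GFP reporter, in which the promoter of the motor neuron gene Hb9 drives a green fluorescent protein used for sorting. Brachial control, brachial mutant, thoracic control and thoracic mutant motor neurons had 3 libraries each, named A, B and C, 12 in all. Controls were littermates, and the mutants are labelled PbxMNdelta. Neither the deleted alleles nor the Cre driver is named in these sources. The design text speaks of 9 pooled controls and 9 mutants without placing them in libraries, so the 3 libraries of a group may or may not be separate embryos. Values are a normalized signal, called normalized counts here because they are whole multiples of 1 step per library, and each level has its own scale. Whether 1 step is 1 read is not stated. Differences are mutant minus control on log2(normalized count + 0.5), with the standard error (SE) of limma, a linear model that shares the estimate of spread over genes.

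Pbx proteins are homeodomain transcription factors that bind DNA together with Hox proteins and with other homeodomain partners of the Meis and Prep families. Hox proteins give motor neurons their position along the cord, and with it the muscle or ganglion that each axon reaches. Motor neurons at brachial levels supply the forelimb, and those at thoracic levels supply the body wall and the sympathetic ganglia. Genes found at both levels are therefore ones whose RNA differed with Pbx genotype in motor neurons that carry unlike Hox proteins.

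Promoter sequence was available for 21 of the 30 genes, in 30 windows of 300 bases that run from 250 bases before to 50 bases after an annotated start (RefSeq, build GRCm38.p6). Shown first are the 250 bases before the start for the 3 genes with the largest mean difference over both levels that had an entry, and for Kcnip4, added after the search because its window held the narrower Hox-Pbx form. Pbx3 has no entry. All are written 5′ to 3′ on the strand of the gene. Cyp26b1 lies on the minus strand at chr6:84593811-84594060, Creb5 on the plus strand at chr6:53287053-53287302, Hrk on the plus strand at chr5:118169514-118169763 and Kcnip4 on the minus strand at chr5:49285660-49285909. For Creb5 and Kcnip4 the first of 2 listed starts was used. Capitals mark TGACGTCA, the cyclic AMP response element, in Creb5, and in Kcnip4 TGATTCAT, which fits the Hox-Pbx motif TGATTNAT, and TGACAG, the Meis motif, read on the other strand.
Cyp26b1: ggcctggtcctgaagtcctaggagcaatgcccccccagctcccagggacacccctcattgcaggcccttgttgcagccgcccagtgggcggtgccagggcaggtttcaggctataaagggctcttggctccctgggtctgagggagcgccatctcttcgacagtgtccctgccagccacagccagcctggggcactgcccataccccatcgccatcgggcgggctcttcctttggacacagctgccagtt
Creb5: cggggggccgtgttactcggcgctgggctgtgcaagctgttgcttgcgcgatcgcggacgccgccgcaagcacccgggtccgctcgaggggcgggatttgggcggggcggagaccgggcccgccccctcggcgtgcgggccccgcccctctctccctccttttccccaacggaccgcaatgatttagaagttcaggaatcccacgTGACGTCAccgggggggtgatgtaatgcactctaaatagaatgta
Hrk: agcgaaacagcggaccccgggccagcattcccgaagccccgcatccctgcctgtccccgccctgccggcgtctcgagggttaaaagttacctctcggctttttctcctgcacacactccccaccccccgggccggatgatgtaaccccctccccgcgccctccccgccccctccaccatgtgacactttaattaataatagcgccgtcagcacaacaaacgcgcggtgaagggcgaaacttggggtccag
Kcnip4: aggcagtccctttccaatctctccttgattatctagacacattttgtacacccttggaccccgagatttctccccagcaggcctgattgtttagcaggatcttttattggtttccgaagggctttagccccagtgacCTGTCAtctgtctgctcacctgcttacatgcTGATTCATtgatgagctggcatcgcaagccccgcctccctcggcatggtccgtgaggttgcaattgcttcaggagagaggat

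Both strands of each whole window were searched. The general Hox-Pbx form TGATNNAT was found in 6 of the 30 windows (20.0%), against 8.85% of all 32851 windows in the table. Its matches were TGATAAAT in Mecom, TGATTCAT in Kcnip4, TGATGCAT in Fat1, TGATCCAT in Arhgap5, and TGATAGAT in both Sncg and Lifr. The narrower form TGATTNAT, which is part of TGATNNAT, was in 1 window (3.33%, against 3.22% of all), the Pbx-Prep form TGATTGAC in 0 (against 0.770%) and TGACAG in 5 (16.7%, against 19.2%). The element TGACGTCA, searched after the sequences had been seen, was in 3 windows (10.0%, against 1.79%), those of Creb5, Clstn2 and Hlf. These are matches of letters in a short window and say nothing of binding. The windows of Cyp26b1, Creb5 and Hrk held none of the Hox-Pbx or Meis forms, and among the other genes of large mutant difference Kcnip4 held TGATTNAT and TGACAG and Arhgap36 TGACAG.

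Pbx3, itself a Pbx gene, is one of the genes listed at both levels. Thoracic control libraries A, B and C read 3256, 3150.3 and 3714 normalized counts, and thoracic mutants 2349.8, 2448 and 1949.7. Brachial controls read 2461, 2710.0 and 3121, and brachial mutants 1979.9, 1814 and 1506. Every mutant library was below every control library of its level, and the mutant mean was 66.7% of the control mean at the thoracic and 63.9% at the brachial level. Most of the Pbx3 RNA was thus still read in mutants. Whether Pbx3 is itself among the deleted genes is not named in these sources. If it is, whether these reads lie outside a deleted part cannot be told from the tables.

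As the tables were scaled by the authors, 26 of the 30 genes were lower and 4 were higher in mutants at both levels. Every mutant library lay below every control library for these 26 and above for the other 4, at each level. The lists were chosen for such differences: over the whole tables, all mutants lay below all controls for 77.7% of thoracic and 80.6% of brachial genes, and above for 20% and 16.1%, so nothing is read from these counts. Limma called 27 of the 30 thoracic and 30 of the 30 brachial differences at an adjusted p under 0.05, beside 94.6% of all thoracic and 98.4% of all brachial genes. In one direction, 24 and 26 were called lower (75.4% and 82.3% of the whole tables) and 3 and 4 higher (19.2% and 16.1%). These calls reuse the values that chose the genes and are no independent test of them. The genes not called at the thoracic level were Rapgef6, Arhgap5 and Fat1, the 3 with the smallest differences there.

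Part of these directions rests on the scaling. When each library was centred on its median listed gene, the median listed difference moved from -0.67 to 0.041 at the thoracic and from -0.62 to 0.067 at the brachial level, and 17 of the 30 genes were still lower at each level. Some of these were lower by very little, such as Lifr at -0.067 (thoracic) and -0.0016 (brachial). The genes that turned positive at both levels were Zeb2, Pbx3, Unc5c, Cntn2, Clstn2, Rapgef6 and Arhgap5. Ebf2 and Mecom did so at the thoracic level, and Tmtc1 and Hfm1 at the brachial level. The lists were chosen as changed, and 79.2% of thoracic and 83.9% of brachial listed genes were lower, so this centring takes away a fall shared by the list. Falls smaller than about the median listed one turn positive by construction. The 2 scalings cannot be told apart from listed genes. Directions below are for the authors' scaling, and each group of genes is given with the members that turn. The libraries hold RNA of many sorted cells, so fewer cells of a type and less RNA per cell cannot be told apart.

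**Figure D1:**
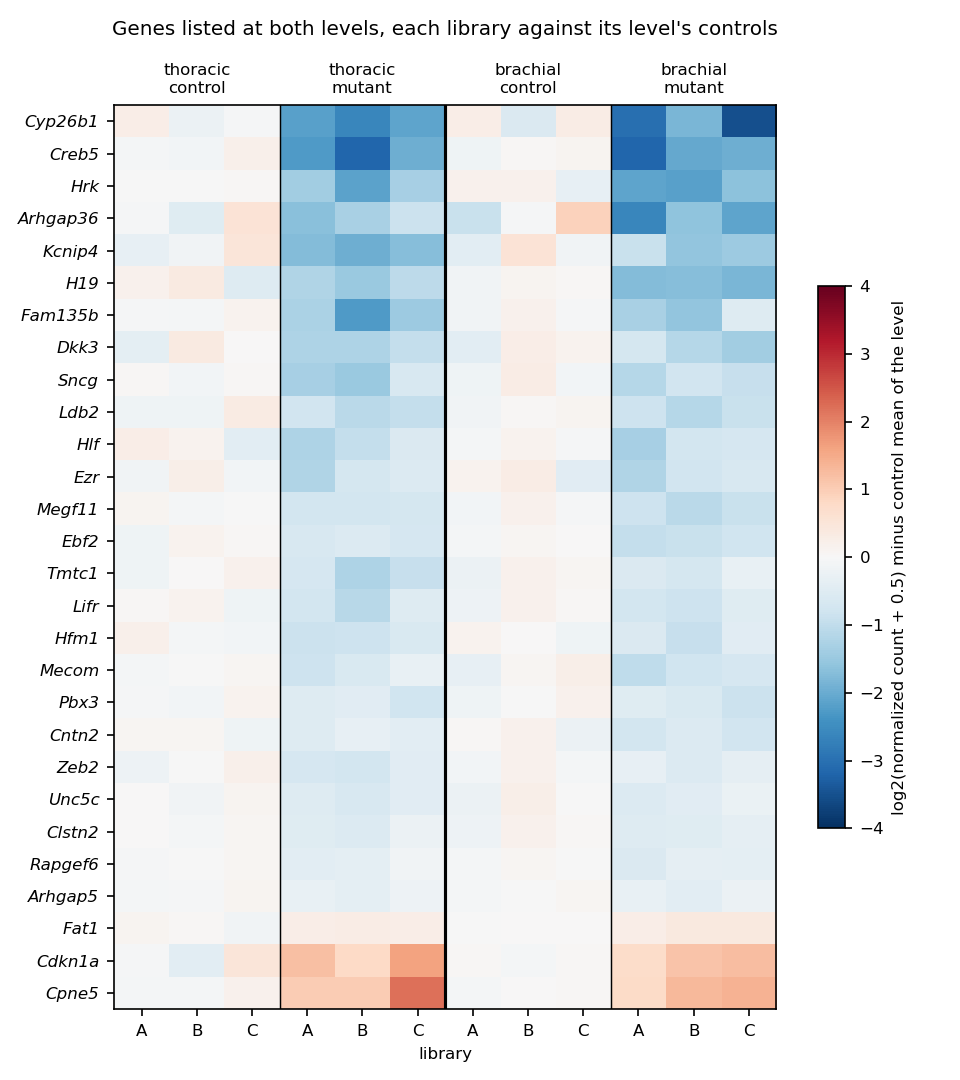
Colour shows log2(normalized count + 0.5) of 28 of the 30 genes (rows, ordered by mean difference) in each of the 12 libraries (columns), minus the mean of the 3 controls of the same level. In the authors' scaling 25 rows are lower (blue) and 3 higher (red) in the mutants of both levels, whereas with each library centred on its median listed gene 9 of the lower rows turn positive at each level.

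The steepest falls in level were in Cyp26b1, which encodes an enzyme that breaks down retinoic acid, and Creb5, a transcription factor of the CREB family. Cyp26b1 read 238, 168 and 191 normalized counts in thoracic controls and 43.6, 31.9 and 45.0 in thoracic mutants. In brachial libraries it read 89.1, 49.1 and 90.6 in controls and 8.60, 20.5 and 6.01 in mutants. Mutant means were 20.2% and 15.3% of control means, with log2 differences of -2.30 (SE 0.20) and -2.78 (SE 0.43). If 1 step of the values is 1 read, brachial mutants A, B and C rested on 9, 22 and 6 Cyp26b1 reads, so the brachial size is the less precise of the 2, and it ran from -3.26 to -2.42 when 1 library was left out. Of 18 retinoid genes, Rxra, a retinoid receptor, was the other one listed in a mutant table, at -0.77 (SE 0.19) in the thoracic one.

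Creb5 read 319.6, 315 and 392 in thoracic controls and 70.7, 37.4 and 86.9 in thoracic mutants. Brachial controls read 141, 164 and 172, and brachial mutants 17.2, 38.2 and 40.1. The thoracic means were 342 ± 43.2 in controls and 65.0 ± 25.2 in mutants (SD, n = 3), which is 5.27-fold lower, and the brachial means 159 ± 16.2 and 31.8 ± 12.7, which is 4.99-fold lower. The 2 falls were thus of similar multiple, although the 95% interval of their log2 difference is wide (-1.13 to 0.98). The means of the 2 levels are on separate scales and are not compared here. The log2 differences were -2.47 (SE 0.31) and -2.39 (SE 0.30), and both genes stayed lower under the centring.

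The 7 transcription factors and cofactors of transcription were all lower in mutants at both levels, with differences from -2.47 to -0.58 at the thoracic and -2.39 to -0.41 at the brachial level, although with the centring Pbx3 and Zeb2 turned positive at both levels and Ebf2 and Mecom at the thoracic level. Ldb2 binds the LIM domains of factors that specify motor neurons. It read 414, 418 and 588 in thoracic controls against 272, 223 and 240.1 in mutants, and 221, 253 and 260.4 in brachial controls against 138, 111 and 132. Mutant means were 51.8% and 51.9% of controls. Hlf, a leucine zipper factor of the PAR family, stood at 52.4% and 54.3%, though its thoracic control C (315) came close to thoracic mutant C (281). Ebf2, a helix-loop-helix factor of motor columns, stood at 64.7% and 54.1%. Mecom, a zinc finger factor, was at 67.5% and 55.9%, and Zeb2, a zinc finger repressor, at 64.4% and 75.4%. Among 9 genes known from the median motor column, both Ebf2 and Mecom stood in each mutant table. Ebf1 (-0.29, SE 0.14, not called) was in the thoracic table and Nr2f2 (-0.52, SE 0.19) in the brachial one.

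**Figure D2:**
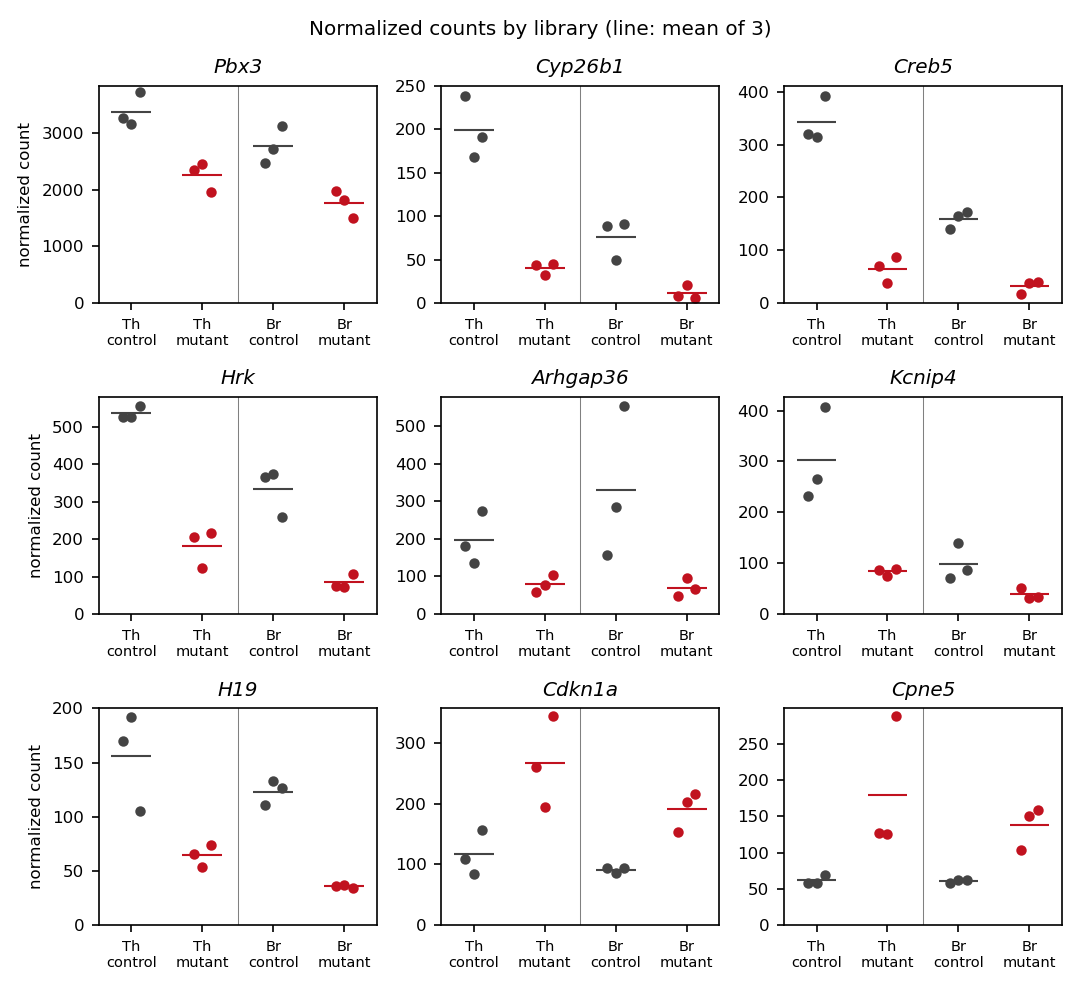
Normalized counts of 9 genes in the libraries of thoracic (Th) and brachial (Br) controls (grey) and mutants (red), with a line at the mean of 3 libraries and every axis starting at 0. Cyp26b1, Creb5, Hrk, Arhgap36, Kcnip4 and H19 are lower and Cdkn1a and Cpne5 higher in each mutant library, while Pbx3 keeps 66.7% and 63.9% of its control mean and turns positive once libraries are centred on the median listed gene. The vertical line parts tables that were scaled separately.

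Genes of cell death and cell cycle control went opposite ways. Hrk, which encodes a BH3-only activator of cell death, read 528, 526 and 556 in thoracic controls and 205, 122 and 216 in mutants, and 367, 374 and 259 in brachial controls against 75.5, 72.6 and 106. That is 33.7% and 25.4% of the control mean, with log2 differences of -1.61 (SE 0.23) and -1.97 (SE 0.21). Cdkn1a, which encodes the cell cycle inhibitor p21, read 109, 83.5 and 156 in thoracic controls and 260.0, 194 and 344 in mutants. In brachial libraries it read 93.2, 85.6 and 94.7 in controls and 153, 203 and 215 in mutants. Its mutant mean was 229% of the control mean at the thoracic and 209% at the brachial level, with differences of 1.20 (SE 0.29) and 1.04 (SE 0.16). Both genes kept these directions under the centring.

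Cpne5, a calcium-dependent membrane-binding copine, was the most raised gene of the set. It read 58.6, 58.1 and 69.7 in thoracic controls, and 127, 125 and 288 in thoracic mutants, where library C stood apart. Brachial controls read 57.7, 61.6 and 62.8 and mutants 104, 151 and 158. The thoracic difference of 1.41 (SE 0.33) was 1.02 with the lone high mutant library left out, near the brachial 1.15 (SE 0.18). Fat1, a giant cadherin, read 2197, 2105 and 1852 in thoracic controls and 2454, 2500.4 and 2483 in mutants, and 1537, 1587 and 1578 in brachial controls against 1867, 2073 and 2074. Fat1 was 0.28 (SE 0.14) and 0.35 (SE 0.11) higher, the smallest rise of the 4 higher genes. All 4 were also higher under the centring.

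Among signals and cell surface proteins, Dkk3, a secreted protein of the Dickkopf family, stood at 44.4% of the thoracic and 47.4% of the brachial control mean. Of the 6 receptors and surface proteins 5 were lower and Fat1 was higher, beside 79.2% of all thoracic and 83.9% of all brachial listed genes lower. Unc5c, Cntn2 and Clstn2 turned positive with the centring. Under it Lifr (-0.067 thoracic, -0.0016 brachial) and thoracic Megf11 (-0.0049) were barely lower, and brachial Megf11 stood at -0.25. Lifr, the receptor for leukaemia inhibitory factor and related cytokines that act on motor neurons, stood at 58.8% and 62.1%. Megf11, a transmembrane protein known in the mouse retina for the spacing of neurons, was at 60.6% and 52.1%, with thoracic mutants at 687, 686 and 699 against controls between 1067 and 1229.6. The netrin receptor Unc5c stood at 68.8% and 74.3%. The axonal adhesion protein Cntn2 was at 74.7% and 62.1%, and the synaptic cadherin Clstn2 at 74.8% and 72.7%. Of the 27 axon guidance genes fixed as a list, 2 were listed and called lower in the thoracic and 4 in the brachial table, and Unc5c was the one in both. Over the whole tables, 75.4% of thoracic and 82.3% of brachial genes were called lower.

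The 3 regulators of small GTPases were lower, as were 79.2% of all thoracic and 83.9% of all brachial listed genes. Rapgef6 and Arhgap5 turned positive with the centring. Arhgap36, a protein of a GTPase-activating family known to inhibit protein kinase A, varied widely among controls. Thoracic controls read 182, 136 and 274 and mutants 58.5, 76.9 and 103, and brachial controls 158, 284 and 553 against 47.8, 95.9 and 67.1. Its brachial difference of -2.10 (SE 0.44) ran from -2.54 to -1.64 when 1 library was left out. Arhgap5, a GTPase-activating protein, read 1463, 1507 and 1672 in thoracic controls and 1261, 1170.0 and 1347 in mutants, and 1043, 1082 and 1151 in brachial controls against 888, 809.8 and 927. The thoracic controls of Rapgef6, an exchange factor for Rap, read 2814, 2876 and 3084 and the mutants 2187, 2206 and 2649.7. Brachial Rapgef6 read 1928, 2164 and 2040.3 in controls and 1366, 1584 and 1569 in mutants. These 2 genes held 80.3% (Rapgef6) and 81.4% (Arhgap5) of the thoracic control mean, the smallest falls of the set at that level.

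H19 is an imprinted RNA made from the maternal allele and the host of the microRNA miR-675. It read 170.1, 193 and 106 in thoracic controls and 65.4, 53.8 and 73.6 in mutants, and 110.4, 133 and 127 in brachial controls against 36.3, 37.2 and 34.1. The brachial mutant mean was 35.9 ± 1.63 (SD, n = 3), the smallest SD of the 4 groups for this gene. Of 15 genes of imprinted growth control and the insulin-like growth factor axis, H19 was listed at both levels and Igfbp2 in the brachial table, 0.98 higher (SE 0.16).

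The remaining genes have mixed roles. Kcnip4, which encodes a partner of voltage-gated potassium channels, read 233, 265 and 408 in thoracic controls and 87.3, 74.7 and 88.9 in mutants. In brachial controls it read 70.9, 139 and 86.5, and in brachial mutants 50.7, 31.6 and 34.1. Its mutant means were 27.7% and 39.3% of controls. Fam135b, whose function is not well known, read 308, 297 and 347 in thoracic controls and 131, 65.9 and 114 in mutants, and 162, 200.4 and 174 in brachial controls against 72.7, 59.6 and 124. That is 32.7% and 47.8% of the control mean. Sncg, which encodes gamma-synuclein, stood at 46.6% and 51.7%, and Ezr, which links the cell membrane to actin, at 57.4% and 53.9%. Tmtc1, an enzyme of the endoplasmic reticulum that mannosylates cadherins, was at 52.7% and 68.8%, and Hfm1, a helicase known from meiosis, at 58.6% and 64.2%. Of these 6 genes, Tmtc1 and Hfm1 turned positive with the centring, at the brachial level.

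The libraries did not take part evenly in these differences. Over the 26 lower genes, thoracic mutant B was the lowest of its group for 16 and thoracic mutant C the highest for 19. Among brachial controls, A was the lowest for 20 genes and B the highest for 17. Limma called between 23 and 28 of the 30 genes at the thoracic level when 1 thoracic library was left out, and between 23 (without brachial control B) and 30 at the brachial level. Shares over the whole tables were not counted for these fits, and the main fit called 94.6% of all thoracic and 98.4% of all brachial genes. Nothing about the 30 genes is therefore read from these counts. No gene could change direction in these fits, since mutant and control libraries of a level did not overlap for any of the 30 genes.

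The question that the 2 tables together address is whether the mutation changed these genes by the same factor at both levels. The difference of differences, thoracic minus brachial, was fitted by limma over all 12 libraries and the 30 genes. It had a median size of 0.14 on the log2 scale, with 20 of the 30 genes under 0.25 and 27 under 0.5. Limma found 0 of the 30 (0%) below an unadjusted p of 0.05, and the smallest unadjusted p was 0.0950, for H19. A block for libraries of the same letter and genotype at both levels put 1 of the 30 below it, Cntn2 (0.26). Being listed at both levels favours genes with like differences, so this result is partly set by the choice.

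The intervals say how far this can be taken. The 95% interval of the difference lay within 1 log2 unit on both sides for 22 genes and reached beyond it for 8. The narrowest were for Fat1 (difference -0.08, interval -0.39 to 0.23) and Arhgap5 (0.02, -0.31 to 0.35). For Pbx3 the difference was 0.06 (-0.39 to 0.51) and for Ldb2 0.01 (-0.48 to 0.50). Creb5, with nearly equal falls at both levels, had a wide interval (-1.13 to 0.98), so a 2-fold difference between levels in either direction lies within or near its bounds.

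The 4 genes with the largest differences between levels were Arhgap36 (0.82, interval -0.53 to 2.16), Fam135b (-0.54, -1.42 to 0.35), H19 (0.52, -0.11 to 1.15) and Kcnip4 (-0.50, -1.36 to 0.36). A positive value means the fall was larger at the brachial level, as for Arhgap36 and H19. Of the 26 lower genes, 15 fell more at the brachial and 11 more at the thoracic level. Leaving out 1 library brought 1 gene under an unadjusted p of 0.05 in 4 of 12 cases. These were H19 without thoracic control B (0.70), Hrk without thoracic mutant B (0.62), Arhgap36 without brachial control A (1.26) and Cyp26b1 without brachial mutant B (0.97). In each the brachial fall was the larger, and no adjustment was made for the 30 genes. Leaving out another library shrank the same differences. Arhgap36 was then 0.36 (without brachial control C), H19 0.27 (without thoracic control C), Hrk 0.21 (without thoracic mutant C) and Cyp26b1 0.12 (without brachial mutant C). Fam135b was -0.23 without brachial mutant C, and Kcnip4 -0.26 without thoracic control C. The sizes of these differences therefore moved with the library left out, while their signs did not change.

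**Figure D3:**
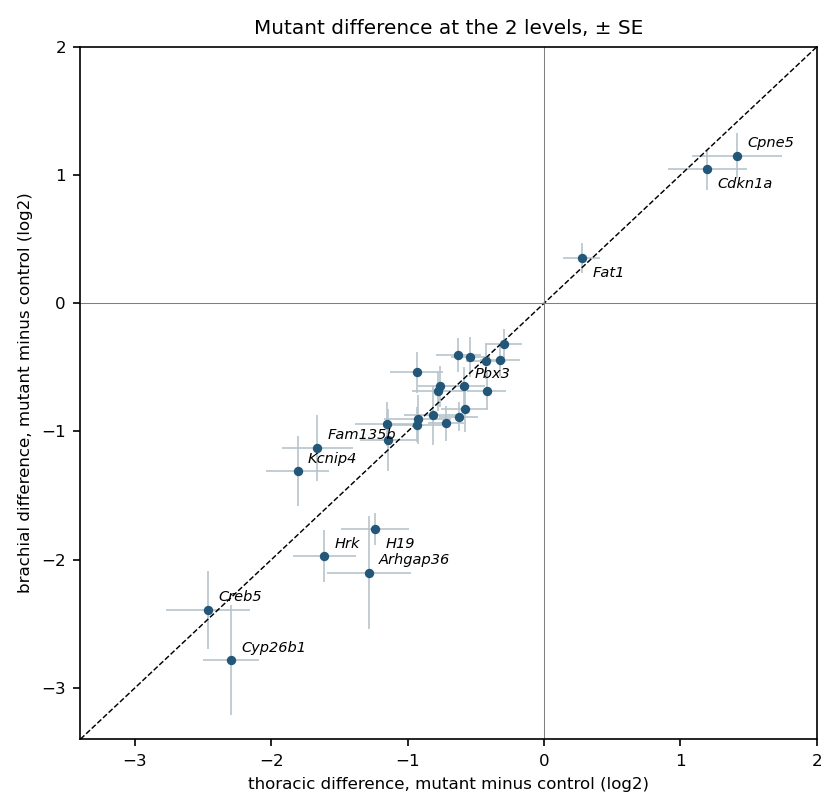
Each point is 1 of 28 of the 30 genes, with its mutant minus control difference (log2, ± SE) at the thoracic level on the x axis and at the brachial level on the y axis, and the dashed line marks equal differences. In the authors' scaling 3 of the points lie at the upper right and the others at the lower left, Creb5 close to the line, while Arhgap36 (0.82), Fam135b (-0.54), H19 (0.52), Kcnip4 (-0.50) and Cyp26b1 (0.48) lie furthest from it.

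**Figure D4:**
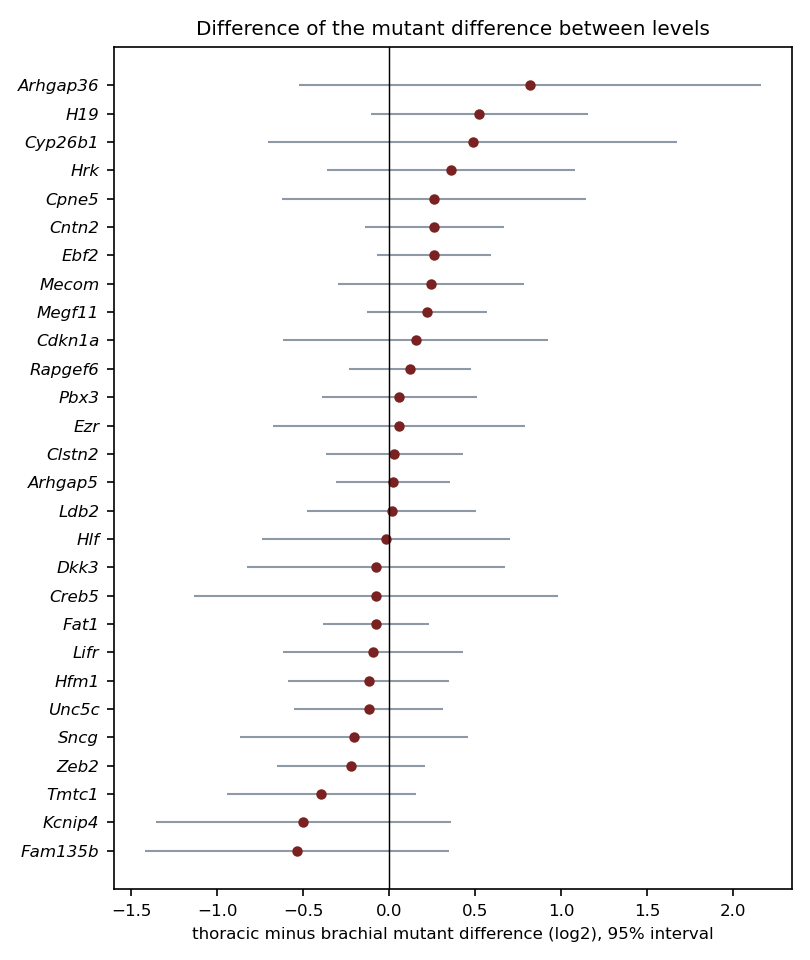
Thoracic minus brachial mutant difference (log2) of 28 of the 30 genes with the 95% interval from limma over 12 libraries. All 28 intervals include 0, and the widest are those of Arhgap36, Cyp26b1 and Creb5.

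How the genes stood in controls was not part of the choice. The control-level table lists Cyp26b1 and Kcnip4 of the 30 genes. Each control library differs between that table and its mutant table by 1 constant factor, 0.867 to 0.869 for thoracic and 1.11 for brachial libraries. The factors were read from 21 shared genes for thoracic but only 2 for brachial libraries. With them the controls of all 30 genes could be put on the scale of the control-level table. Levels set across tables in this way were not tested. These are also the control libraries of the mutant differences, and the 2 sets of values are not independent.

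Of the 30 genes, 23 had higher means in thoracic and 7 in brachial controls. Every thoracic control lay above every brachial one for 13, every brachial one above for 1, and the libraries overlapped for 16. Taken as pairs of the same letter, 16 genes were lower and 3 higher in the brachial library of every pair, and 11 were of mixed sign. Among the 92 genes that could be compared in this way, most of them listed because they differ between control levels, the shares were 55.4% and 26.1%. The median brachial minus thoracic difference was -0.15 over the 30 genes and -0.41 over the 92.

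Kcnip4 was the most unequal, at 78.7, 155 and 95.8 normalized counts in brachial and 202, 229.9 and 354 in thoracic controls (log2 difference -1.27). Cyp26b1 read 98.9, 54.6 and 100.4 in brachial and 207, 146 and 166 in thoracic controls (-1.06). Zeb2 followed with 979, 1177 and 996 against 1674, 1915 and 2241 (-0.88), and then Creb5 with 156, 182 and 190.5 against 278, 273 and 341 (-0.75). Unc5c (-0.61) and Ldb2 (-0.58) were also higher in every thoracic control. Kcnip4 and Cyp26b1 were thus lower in brachial controls and lower again in mutants of each level, with the shares given above.

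Other genes differed little between control levels. Pbx3 read 2731, 3017 and 3459 in brachial and 2829, 2731 and 3226 in thoracic controls, which overlap (0.06). Megf11 (-0.01), Clstn2 (-0.03) and Fat1 (-0.03) were as close, and 15 of the 30 genes lay within 0.25. Cpne5 was the gene with every brachial control above every thoracic one, at 64.0, 68.6 and 69.6 against 51.0, 50.4 and 60.5 (0.32). Arhgap36 had the largest mean excess at the brachial level (0.98), but its brachial controls ran from 175 to 613 and its thoracic ones from 118 to 238.

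**Figure D5:**
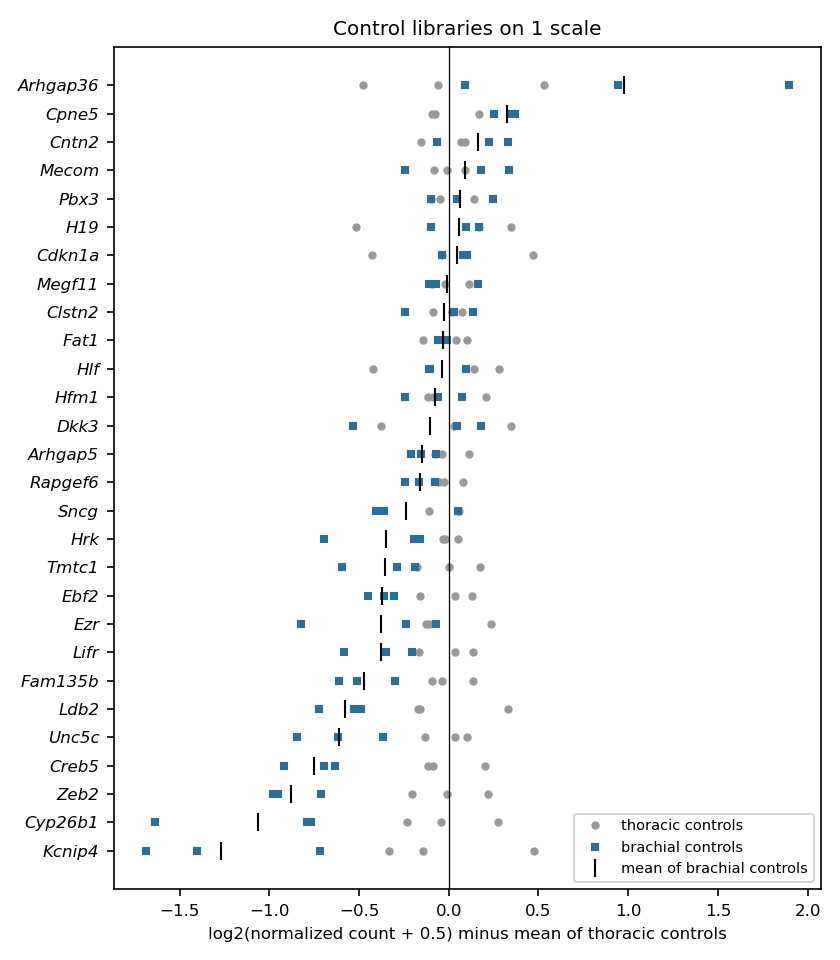
Control libraries of 28 of the 30 genes on the scale of the control-level table, as log2(normalized count + 0.5) minus the mean of the thoracic controls, with thoracic libraries as grey circles, brachial ones as blue squares and the brachial mean as a bar. Brachial libraries lie wholly to the left for 12 genes, Kcnip4, Cyp26b1, Zeb2 and Creb5 the furthest, and wholly to the right for Cpne5.

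Set beside the other listed genes, the 30 had a median difference of -0.77 at the thoracic level, against -0.62 for the 100 genes listed there and not in the brachial table, and -0.67 for all 130. In the brachial table it was -0.85, against -0.42 for the 32 other genes and -0.62 for all 62. These medians follow lists chosen on the same values and were not tested. The least certain member by the authors' deposited table was Arhgap36 at the brachial level, with an adjusted p of 0.0908, listed although over 0.05. The log2 fold changes of the authors' deposited table were smaller in size than the limma differences for all 30 genes at the brachial level, at a median of 59.8% of them (lowest 10.2%, for Arhgap36, and highest 89.7%). At the thoracic level they lay between 95.9% and 109% of them. The cause of this gap at the brachial level was not tested. The next largest adjusted p-values in the authors' deposited table were those of Arhgap5 at the thoracic level (0.0445) and Hfm1 at the brachial level (0.0359), and genes just past the authors' limit were not analysed here.

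The 30 genes lay on 14 chromosomes, at most 4 on any one, and no 2 of them were next to each other in gene order (RefSeq names on GRCm38.p6). Cdkn1a and Cpne5, both higher in mutants, lie close together on chromosome 17, where each has Rab44 as a neighbour. Whether this bears on their rise was not tested. In the GENCODE annotation of GRCm38, exons of 10 genes overlap a gene on the opposite strand, namely Kcnip4, H19, Ezr, Zeb2, Ebf2, Mecom, Unc5c, Fat1, Cdkn1a and Cpne5. The sources used here do not say whether counting used strand, so reads of these pairs may be mixed. H19 also contains the gene of miR-675.

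Of the motor neuron list of 16 genes, 1 was listed in the thoracic and 6 in the brachial table, all called lower, among them Ebf2 at both levels. Of all listed genes, 75.4% (thoracic) and 82.3% (brachial) were called lower, so nothing is read from this count. Chat, which makes acetylcholine, read between 131.7 and 200.7 in brachial controls and between 39.2 and 73.1 in brachial mutants. The defining factors Mnx1, Isl1 and Lhx3 were not analysed here, so the sorted cells were not checked against them. Of markers of other cells, the lists for dorsal root ganglion and neural crest (10 genes) and for blood and endothelium (11 genes) gave 0 listed genes in any table, and interneurons (16 genes) gave 1, in the control-level table. Progenitors and glia (12 genes) gave Nes, and mesenchyme and muscle (12 genes) gave Col2a1 and Postn, all lower in thoracic mutants. Nes read between 529.7 and 712 normalized counts in thoracic controls and between 409 and 438 in mutants, Col2a1 between 46.1 and 98.1 and between 31.9 and 38.4, and Postn between 26.4 and 41.6 and between 5.11 and 9.89. Their part in the results was not tested.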

How the data were processed

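RNA sequencing of 12 libraries of sorted mouse motor neurons was used, as 3 tables deposited by the authors, each holding the genes they kept. The RNA was amplified as cDNA before library construction, per the labels' protocols, so reads are not independent molecules. The aligner Bowtie 1.0.0, the counter HTSeq 0.6.1p1, DESeq2 1.12.3 and Picard 1.88 are named in the submitters' processing notes, as are mm9 and NCBIM37, with no settings. The normalized signal per library, called CPM in the sheet titles, was deposited by the authors with its own scale in each table: 100% of nonzero values are whole multiples of 1 step per library (tolerance 0.0001). If 1 step is 1 read, the listed genes held 39381 to 81370 reads per library in the mutant tables. Full depth is unknown. The authors also deposited log2 fold changes, test scores and p-values, of which adjusted p-values of their deposited table are given for 3 genes and fold changes for the 30 genes as a share of the limma differences.

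No low value was filtered out. The log2(value + 0.5) of each mutant table went into limma 3.58.1 (R 4.3.3) as 2 groups, with Benjamini-Hochberg adjustment over the table (threshold 0.05) of all its genes. A further limma fit had level, genotype and their interaction over 12 libraries for the 30 genes. The fits were tested on simulated data in which most genes were unchanged and rises and falls were equal in number. The simulated difference between levels was larger than any seen here. That test therefore does not show how the fits perform on lists of genes chosen as changed. p-values and intervals measure only the spread between libraries, which may be technical. Members, lists, roles and tests were chosen with earlier results of these data known. Values in every library are given for Pbx3, the 6 genes with the largest mean difference, those higher in mutants, those not called at 1 level, the 4 with the largest difference between levels and those in the control-level table. Values of others were added after they were seen. In all, 2 of the 30 genes are not reported by name or drawn here, but are in the counts. Lists of Pbx-related (11; 1 listed and called lower at each level), motor neuron (16), median column (9), retinoid (18), imprinted growth (15), axon guidance (27), adhesion (27), GTPase regulator (19), channel (21), subtype factor (26) and 5 sets of other cells' marker genes were counted. For adhesion, 1 gene was called lower and 2 higher in the thoracic table and 2 and 3 in the brachial one. GTPase regulators gave 1 and 3 lower, channels 4 and 1 lower, and subtype factors 4 lower and 1 higher, and 3 lower, in the same order. Over the whole tables, 75.4% of thoracic and 82.3% of brachial genes were called lower, and 19.2% and 16.1% higher. Python 3.11.15 with pandas 2.3.3, numpy 2.4.6 and matplotlib 3.10.9 were used for the rest. Alternatives were other pseudocounts, a minimum mean, the replicate letter as a block, centring, an intensity trend and leaving out each library.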

Additional observations from a re-analysis of the deposited data

How the results depend on the processing

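The direction of all 60 mutant differences was the same with 0.1 or 2 as the pseudocount, with genes of a mean under 1 left out, with the letter as a block, with an intensity trend and each left-out library. This was fixed in advance and supports nothing. Mutant and control libraries of a level did not overlap for any of the 30 genes. The filter on the mean dropped none of them, and neither the block nor the trend alters the difference itself. With each library centred on its median listed gene, 9 of the 30 genes were called at each level instead of 27 (thoracic) and 30 (brachial). Over the whole tables, the centring left 52 of 130 thoracic and 20 of 62 brachial genes called, so the loss of calls was not particular to the 30. Thoracic values that turned positive were Zeb2 0.086, Ebf2 0.089, Pbx3 0.13, Mecom 0.13, Unc5c 0.17, Cntn2 0.295, Clstn2 0.29, Rapgef6 0.39 and Arhgap5 0.42. Brachial ones were Tmtc1 0.145, Hfm1 0.039, Zeb2 0.28, Pbx3 0.036, Unc5c 0.265, Cntn2 0.0040, Clstn2 0.23, Rapgef6 0.24 and Arhgap5 0.36. The intensity trend called 30 thoracic genes. Without 1 library, 23 to 28 thoracic and 23 to 30 brachial genes were called, and 0 to 1 gene had an unadjusted p under 0.05 for the difference between levels. Shares over the whole tables were not counted for the trend and the left-out libraries, so nothing is read from these counts of mutant differences. The median control difference, -0.15, ran from -0.23 to -0.14 without 1 library and was -0.51 in the scaling of the mutant tables, which differs by construction.

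Deviations of libraries that share a letter correlated between controls and mutants from -0.13 to 0.31 (thoracic, 130 genes) and from -0.49 to 0.10 (brachial, 62 genes). Between levels they ran from 0.30 to 0.40 in controls and from -0.03 to 0.38 in mutants (30 genes). Every pair was over 0.1 for controls of the 2 levels, but not for mutants of the 2 levels or between genotypes, so the fits over both genotypes were left without the block. The replicate block by letter left 27 and 30 genes called and 0 with a difference between levels, and its calls over the whole tables were not counted. A replicate block by letter within genotype gave 1 gene under an unadjusted p of 0.05, Cntn2 (0.26). The 2 planned count tests were not run, since the values were taken as a normalized signal. Few reads limit Cyp26b1 and Creb5 in brachial mutants the most.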
